A study of Mus musculus with 6 samples.

Results

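Kupffer cells are the resident macrophages of the liver sinusoids, and 10 genes that mark them in mice are described here in liver non-parenchymal cells of SRA-/- and wild type mice. The genes are Clec4f, Vsig4, Timd4, Cd5l, Adgre1, Csf1r, Nr1h3, Id3, Folr2 and Clec1b. They were picked by symbol, with earlier results of these data known, and make up 10 of the 53546 genes in the count files. All 10 were among the 20541 genes that passed the filter on low counts. Non-parenchymal cells are what remains of a liver cell preparation once hepatocytes are removed, and include Kupffer cells, other leukocytes, stellate cells and the endothelium. The SRA-/- group consisted of 3 libraries from male mice that lack scavenger receptor A, a macrophage receptor for modified lipoproteins encoded by Msr1. The wild type group consisted of 3 libraries from male mice. Both groups received acetaminophen, 400 mg/kg into the peritoneum, and the cells were collected 6 h later. Without an untreated group, no value below separates a response to the drug from the level without it. The labels state neither strain, age nor the design of the knockout allele.

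Embryonic precursors and, after injury, blood monocytes settle in the sinusoid and take up the Kupffer cell programme under signals from endothelial, stellate and parenchymal neighbours. Among these signals, CSF1 and IL-34 keep the cells alive through the receptor Csf1r, and Notch ligands, TGF-beta family members and oxysterols act on the transcription factors Nr1h3 and Spic. Mature Kupffer cells take up dying cells, complement-coated particles and aged blood cells through surface receptors that include Timd4 and Vsig4. In mice, high doses of acetaminophen are known to reduce resident Kupffer cells and to draw in neutrophils and monocytes.

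Gene counts summed to 44003902, 29757016 and 23757203 in SRA-/- replicates 1, 2 and 3, and to 32520128, 25061773 and 31172636 in wild type replicates 1, 2 and 3. Levels are given as CPM, counts relative to a library total scaled by edgeR's TMM factor. Both mates of a pair were counted, so 3 fragments give 6 counts, which equal 0.130 to 0.272 CPM depending on the library, a limit for counting error only. Msr1 itself had 40.2, 33.5 and 41.9 CPM in SRA-/- libraries, against 38.5, 73.4 and 114 CPM in wild type libraries. A count over the whole gene can include transcripts that yield no receptor, and wild type replicate 1 lay within the SRA-/- range, so this gene did not check the labels. Hepatocyte RNA was found in every library, and 10 hepatocyte markers summed to 48285 to 96846 CPM in SRA-/- libraries and to 26727 to 80282 CPM in wild type libraries. Of 8 neutrophil markers all 7 tested were higher in SRA-/- libraries at an unadjusted edgeR p under 0.05, which 2.32% of all tested genes were, and 0 passed after adjustment. Their sums of 141, 44.4 and 178 CPM in SRA-/- libraries, against 16.1, 32.7 and 43.0 CPM in wild type libraries, nearly met between SRA-/- replicate 2 and wild type replicate 3.

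All 10 Kupffer cell genes were detected in every library, with a lowest count of 58, for Folr2 in SRA-/- replicate 3. Their detection does not check the labelled cell fraction, as hepatocyte RNA was found in every library too. To compare genes with each other, levels were divided by exonic length and are given as RPKM, which is CPM per kilobase of exon. Cd5l (chromosome 3, 87265188 to 87278380, mm39, as for all gene positions here) was the most abundant, with a mean of 131 ± 44.8 RPKM over the 6 libraries (SD). It encodes a secreted protein of tissue macrophages, also called apoptosis inhibitor of macrophage. Clec4f (chromosome 6, 83621524 to 83633169), a C-type lectin that marks Kupffer cells in mice, had 111 ± 37.5 RPKM. Id3 (chromosome 4, 135870808 to 135873066), a helix-loop-helix protein that blocks DNA binding by its partners and is needed for Kupffer cell development, had 86.0 ± 10.6 RPKM. These 3 genes were not ordered by the data, since Cd5l lay above Clec4f in 4 of 6 libraries and Clec4f above Id3 in 4 of 6. Id3 lay above the next gene in every library, with no overlap of their ranges.

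Csf1r (chromosome 18, 61233670 to 61265221), the receptor tyrosine kinase for CSF1 and IL-34, had 36.3 ± 11.8 RPKM. Vsig4 (chromosome X, 95290809 to 95337044), an immunoglobulin family receptor for complement C3 fragments, had 33.8 ± 14.2 RPKM and lay below Csf1r in 4 of 6 libraries. Adgre1 (chromosome 17, 57665691 to 57790527), which encodes the macrophage antigen F4/80, followed with 17.7 ± 7.63 RPKM. Nr1h3 (chromosome 2, 91014406 to 91033179), the oxysterol-sensing nuclear receptor LXR-alpha, had 16.6 ± 3.004 RPKM. Adgre1 exceeded Nr1h3 in 3 of 6 libraries, so these neighbours were not separated. Timd4 (chromosome 11, 46701627 to 46735159), a receptor for phosphatidylserine on dying cells that marks long-resident Kupffer cells, had 13.4 ± 6.89 RPKM.

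Clec1b and Folr2 had the lowest mean levels per length, although Timd4 exceeded Clec1b in only 3 of 6 libraries, so those neighbours were not ordered. Clec1b (chromosome 6, 129374260 to 129386298), which encodes CLEC-2, a receptor for podoplanin on platelets and Kupffer cells, had 10.4 ± 3.86 RPKM over an annotated exonic length of 5103 bases. Folr2 (chromosome 7, 101489195 to 101506401), the beta form of the folate receptor, had 2.73 ± 1.33 RPKM. Of its 1546 exonic bases 975 (63.1%) overlap exons of Gm10602 on the other strand, and reads that fall on exons of more than 1 gene were not counted. Over the 571 bases of its own, the mean level of Folr2 was 7.38 RPKM. The shared part was 15.1% for Csf1r, with Hmgxb3, 3.61% for Clec1b, with Clec9a, and 1.35% for Nr1h3, with Gm13783, and 0 bases for the other members.

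**Figure D1:**
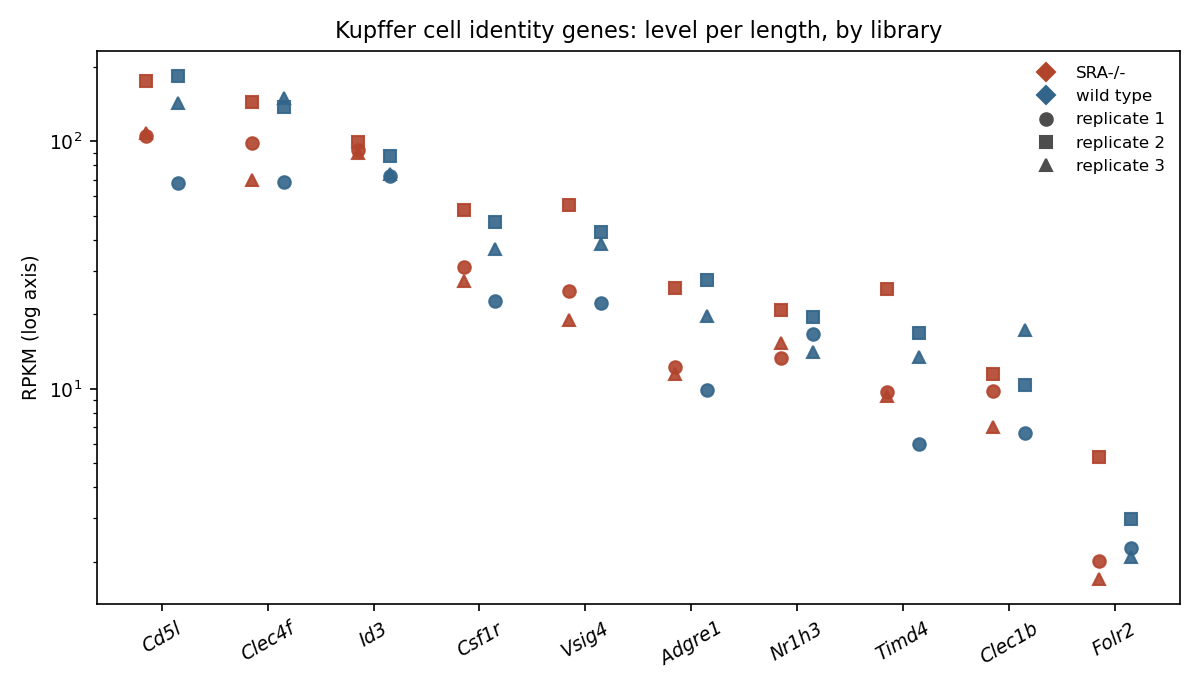
Level of each Kupffer cell identity gene per length (RPKM, log axis) in each of the 6 libraries, with SRA-/- libraries left of wild type libraries for each gene and marker shapes for replicate numbers. Means run from 131 RPKM for Cd5l to 2.73 RPKM for Folr2, and the 3 Id3 points of each genotype lie closer together than those of its neighbours.

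The comparison of SRA-/- with wild type cells asks whether loss of the receptor changed the resident macrophage programme after acetaminophen. No difference in the 10 genes passed the test: 0 of 10 passed edgeR's quasi-likelihood test at an adjusted p of 0.05, where 0.0487% of all tested genes did, and 0 of 10 had an unadjusted p under 0.05, where 3.22% of all tested genes had one, 2.32% higher and 0.896% lower in SRA-/- libraries. DESeq2 and limma-voom with quality weights also called 0 of 10, against 0.267% and 0.365% of the genes each tested. Log2 fold changes ran from -0.28 to 0.29, with 4 of 10 above 0, where 48.3% of all tested genes lay above 0 and 51.7% below. Their median was -0.03, beside -0.01 over all tested genes. In bulk RNA, fewer cells of a type and less RNA per cell cannot be told apart. The titles call the replicates biological but do not tie each library to a mouse. The p-values thus set each difference against a spread between these libraries, which may not be that between mice. The tests estimate that spread in part from other genes, so it is not a gene's own spread alone.

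Clec4f, the lectin, had 243, 358 and 172 CPM in SRA-/- replicates 1, 2 and 3, against 169, 342 and 369 CPM in wild type replicates 1, 2 and 3. Both genotypes thus held low and high libraries, and their ranges overlapped nearly in full. The log2 fold change was -0.19 ± 0.35 (SE), with a 95% interval of 0.511-fold to 1.51-fold and an edgeR adjusted p of 0.9999, the same as for the other 9 genes.

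Vsig4, the complement receptor, had 36.8, 82.0 and 28.2 CPM in SRA-/- libraries, against 33.0, 64.0 and 57.2 CPM in wild type libraries. SRA-/- replicate 2 was the highest library and SRA-/- replicate 3 the lowest, so the wild type values lay inside the SRA-/- range. The log2 fold change was -0.07 ± 0.39. Timd4, the phosphatidylserine receptor, had 21.1, 54.8 and 20.3 CPM in SRA-/- libraries, against 12.97, 36.6 and 29.2 CPM in wild type libraries. It varied most among the 10 genes, with a ratio of 4.23 between SRA-/- replicate 2 and wild type replicate 1, and its interval was the widest, from 0.608-fold to 2.45-fold. Folr2, the folate receptor, had 3.11, 8.17 and 2.63 CPM in SRA-/- libraries, against 3.53, 4.63 and 3.22 CPM in wild type libraries. Its SRA-/- mean of 4.64 ± 3.07 CPM, against 3.79 ± 0.74 CPM in wild type (SD, n = 3 each), rested on SRA-/- replicate 2.

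Cd5l, the secreted protein, had 215, 356 and 220 CPM in SRA-/- libraries, against 138, 375 and 291 CPM in wild type libraries. Wild type libraries held both the highest and the lowest value, and the log2 fold change was -0.02 ± 0.36. Csf1r, the growth factor receptor, had 179, 306 and 158 CPM in SRA-/- libraries, against 131, 273 and 212 CPM in wild type libraries, a log2 fold change of 0.06 ± 0.33. Adgre1, the F4/80 gene, had 39.8, 82.7 and 37.1 CPM in SRA-/- libraries, against 31.9, 89.0 and 64.1 CPM in wild type libraries. For all 3 genes the replicates numbered 2 were the highest of their genotype and wild type replicate 1 the lowest library of all.

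Clec1b, the podoplanin receptor, had 50.1, 58.5 and 36.0 CPM in SRA-/- libraries, against 33.8, 53.1 and 88.2 CPM in wild type libraries. Like that of Clec4f, and unlike those of Cd5l, Csf1r and Adgre1, its peak was in wild type replicate 3. The log2 fold change of -0.28 ± 0.33 was the lowest of the 10. Platelets and sinusoidal endothelial cells also make Clec1b in mice. The 9 platelet and megakaryocyte markers summed to 41.9 to 75.1 CPM in SRA-/- libraries and to 63.8 to 76.4 CPM in wild type libraries, with the highest sum in wild type replicate 3. Of that list Gp1bb was at 0 in 4 libraries. The 8 sinusoidal endothelial markers summed to 1842 to 2252 CPM in SRA-/- libraries and to 1884 to 3325 CPM in wild type libraries, again highest in wild type replicate 3. Their part in the Clec1b values was not tested.

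Both transcription regulators varied little. Nr1h3 had 33.5, 52.3 and 38.5 CPM in SRA-/- libraries, against 42.0, 49.2 and 35.5 CPM in wild type libraries, a log2 fold change of -0.03 ± 0.21 with an interval of 0.705-fold to 1.37-fold. Id3 had 166, 178 and 161 CPM in SRA-/- libraries, against 130, 157 and 133 CPM in wild type libraries. It was the only member whose groups did not overlap, 1 of 10, where 7.28% of all tested genes did not overlap. Its log2 fold change was 0.27 ± 0.18, with an interval of 0.915-fold to 1.58-fold and an unadjusted edgeR p of 0.161. The highest Id3 library exceeded the lowest by a factor of 1.37, the smallest such ratio of the 10 genes. Id3 and Nr1h3 are also made by cells other than macrophages in liver.

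**Figure D2:**
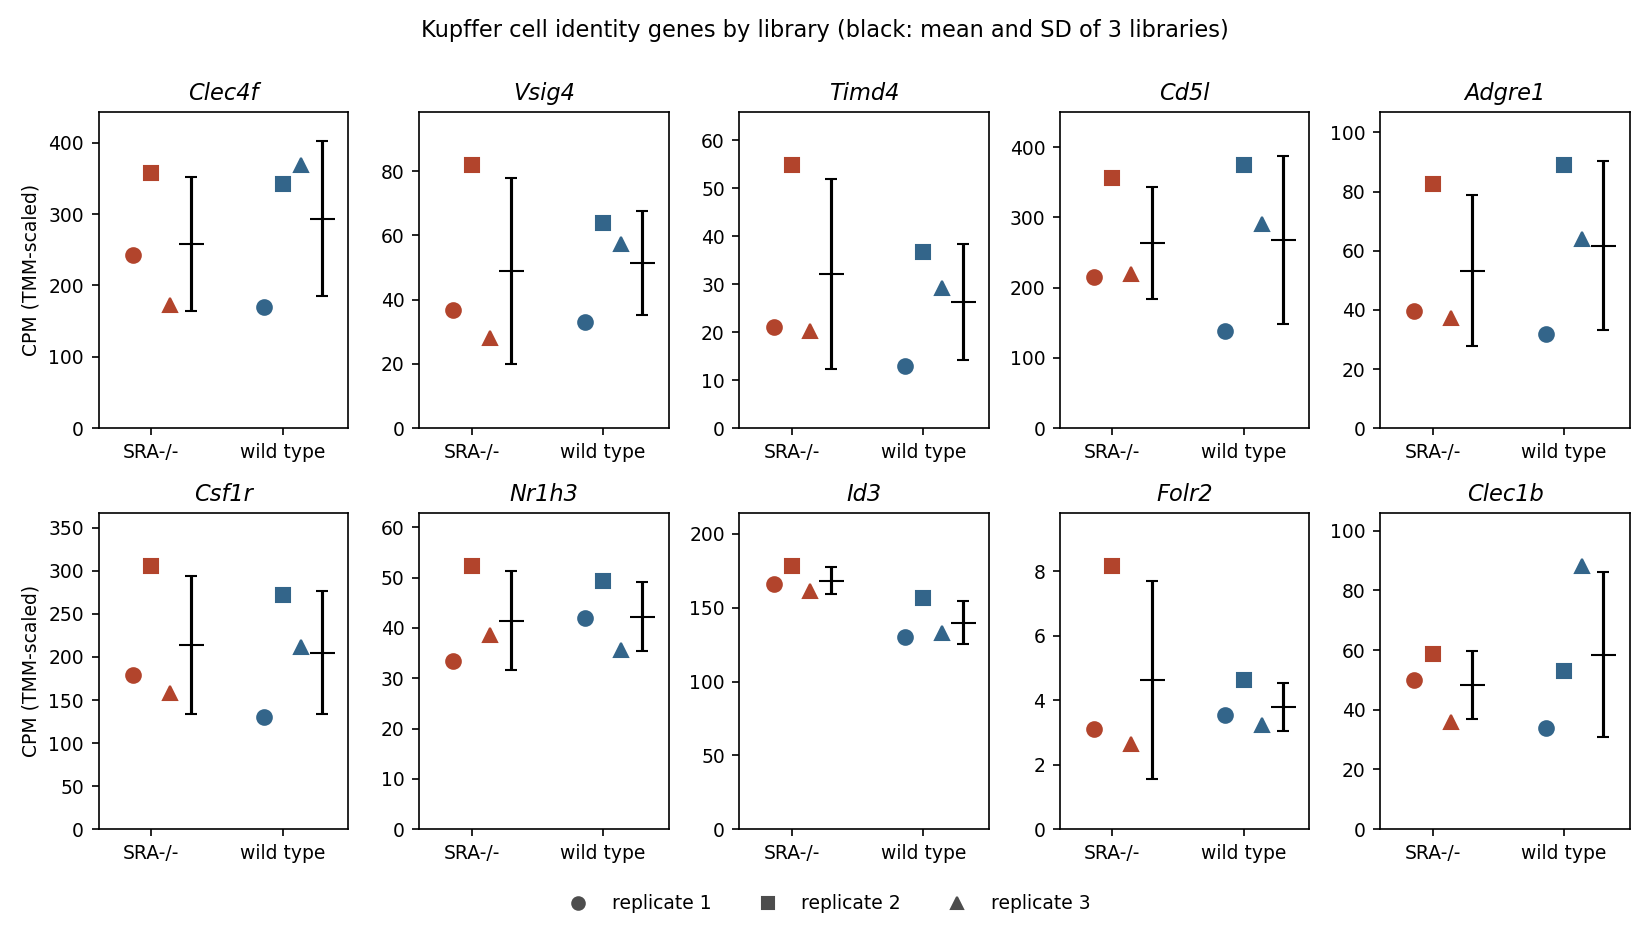
CPM of each of the 10 genes in every library, SRA-/- left and wild type right, with the mean and SD of 3 libraries in black and each panel's axis from 0. Only the Id3 points of the genotypes are apart, at 161 to 178 CPM in SRA-/- and 130 to 157 CPM in wild type libraries.

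**Figure D3:**
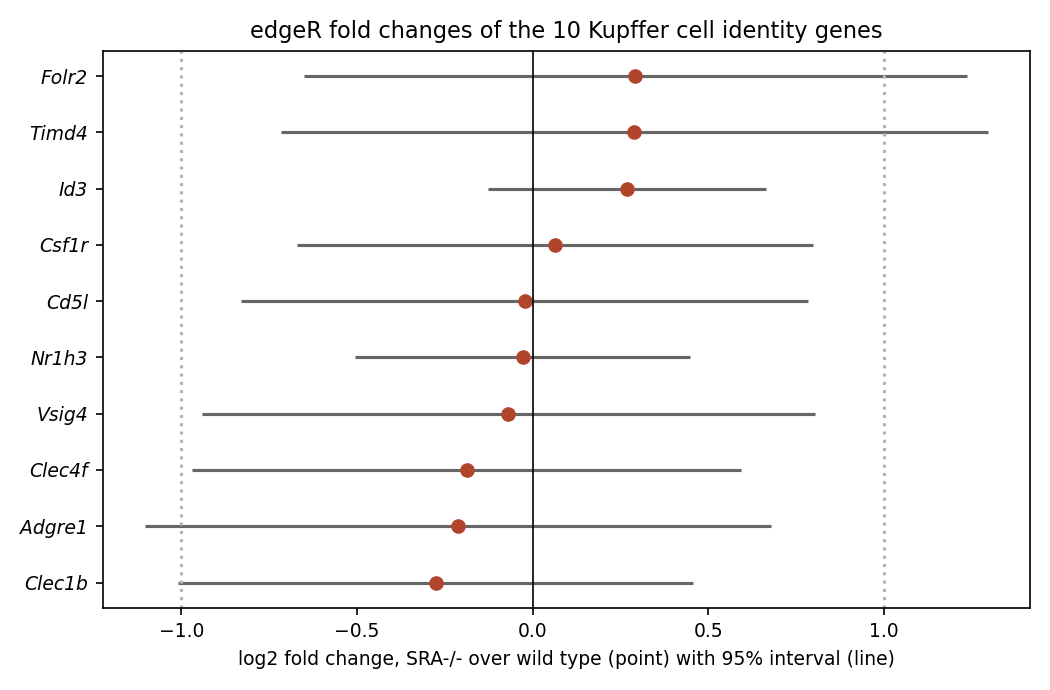
Log2 fold change of SRA-/- over wild type (point) with its 95% interval (line) from edgeR, with dotted lines at changes of 1 log2 unit. Every interval includes 0, and the widest, for Timd4, runs from -0.72 to 1.29.

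How large a difference these libraries could have missed differed by gene. The upper bound of the interval stayed at or below 1.60-fold for Adgre1, Id3, Clec4f, Nr1h3 and Clec1b, and reached 1.72-fold to 1.75-fold for Cd5l, Csf1r and Vsig4. For Timd4 and Folr2 a change up to 2.45-fold and 2.35-fold lay within it. The lower bound was between 0.465-fold, for Adgre1, and 0.915-fold, for Id3. These bounds are not a limit of detection, which was not computed for 3 libraries a group. None of the p-values shows that the genotypes were alike.

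The larger pattern was between libraries of the same genotype. On log2 CPM, the 10 genes lay on average 0.59 above their mean over the 6 libraries in SRA-/- replicate 2, and -0.21 and -0.38 from it in SRA-/- replicates 1 and 3. In wild type replicates 1, 2 and 3 the average deviation was -0.53, 0.37 and 0.16. Each genotype therefore had at least 1 library with high and 1 with low values, and most members moved together. The 6 genes Clec4f, Vsig4, Timd4, Cd5l, Adgre1 and Csf1r were above their means in SRA-/- replicate 2 and wild type replicates 2 and 3. They were below in the other libraries. This grouping was made after the values were seen. Clec1b had the same signs, with its smallest deviations in SRA-/- replicate 1, at -0.01, and wild type replicate 2, at 0.07. Csf1r followed the average most closely, with a root mean square difference of 0.06 log2 units over the 6 libraries, and Id3 least, with 0.36. Among pairs of members Cd5l and Csf1r were the most alike, with a difference of 0.15, and Folr2 and Clec1b the least, with 0.60.

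The median deviations of other marker lists moved with these libraries in part. The 13 general macrophage genes had their median deviation at 0.14, 0.32 and -0.06 in SRA-/- replicates 1, 2 and 3, and at -0.84, 0.27 and 0.17 in wild type replicates 1, 2 and 3, so wild type replicate 1 was the lowest here too. Hepatocyte markers were the reverse in the extremes: SRA-/- replicate 3 and wild type replicate 1, low in Kupffer cell genes, had the highest deviations of 0.57 and 0.43. Wild type replicate 3 was lowest in hepatocyte markers, at -1.01, but not highest in Kupffer cell genes. The part of hepatocyte RNA in the Kupffer cell values was not tested.

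**Figure D4:**
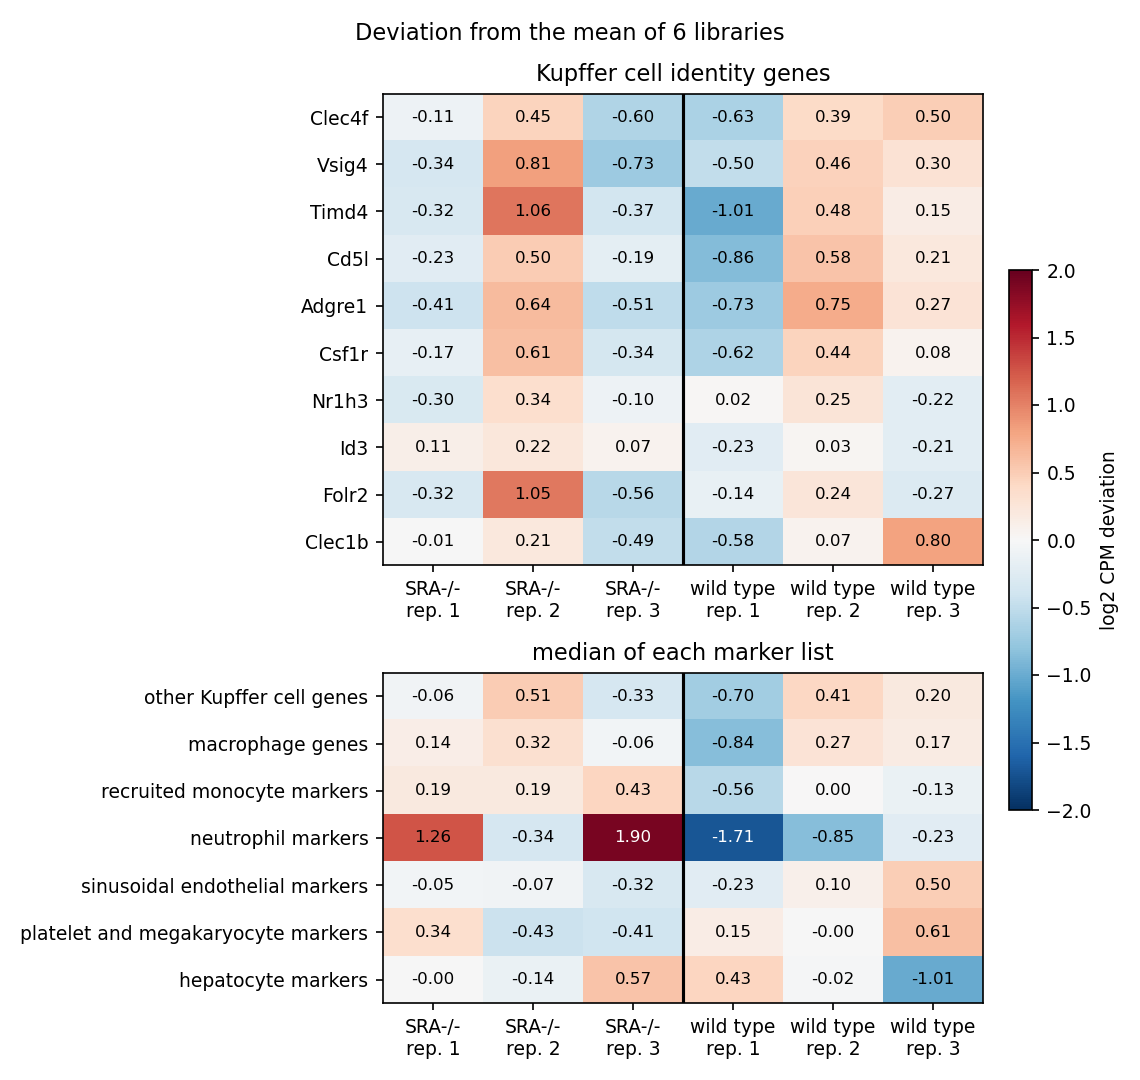
Deviation of log2 CPM from the mean of the 6 libraries, for each Kupffer cell identity gene (upper panel) and as the median of each marker list (lower panel), SRA-/- columns left of the line and wild type columns right of it. Kupffer cell genes are high in SRA-/- replicate 2 and wild type replicate 2 and low in wild type replicate 1, while neutrophil markers are highest in SRA-/- replicate 3, at 1.90, and lowest in wild type replicate 1, at -1.71.

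Set against general macrophage genes, the Kupffer cell genes of the genotypes still overlapped. The 10 genes summed to 986, 1537 and 874 CPM in SRA-/- libraries, against 725, 1442 and 1281 CPM in wild type libraries. Divided by the summed CPM of the 13 macrophage genes, this gave 0.979, 1.35 and 1.05 in SRA-/- libraries, against 1.40, 1.32 and 1.201 in wild type libraries. SRA-/- replicates 1 and 3 were below every wild type library in this ratio and SRA-/- replicate 2 was not. SRA-/- replicates 1 and 3 also had the highest sums of neutrophil markers, 141 and 178 CPM. The part of neutrophils and other myeloid cells in the 13 genes, and so in this ratio, was not tested. The ratio for Clec4f was 0.241, 0.314 and 0.207 in SRA-/- libraries, against 0.326, 0.312 and 0.346 in wild type libraries. With the mean log2 CPM of the macrophage genes as a covariate in edgeR, an alternative chosen after seeing the data, the log2 fold changes of Clec4f, Adgre1 and Clec1b were -0.57, -0.64 and -0.62. These 3 of 10 had unadjusted p-values of 0.0493, 0.0489 and 0.0282, as 6.58% of all tested genes had one under 0.05 in that fit, and their adjusted p-values were 0.755 in each case.

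**Figure D5:**
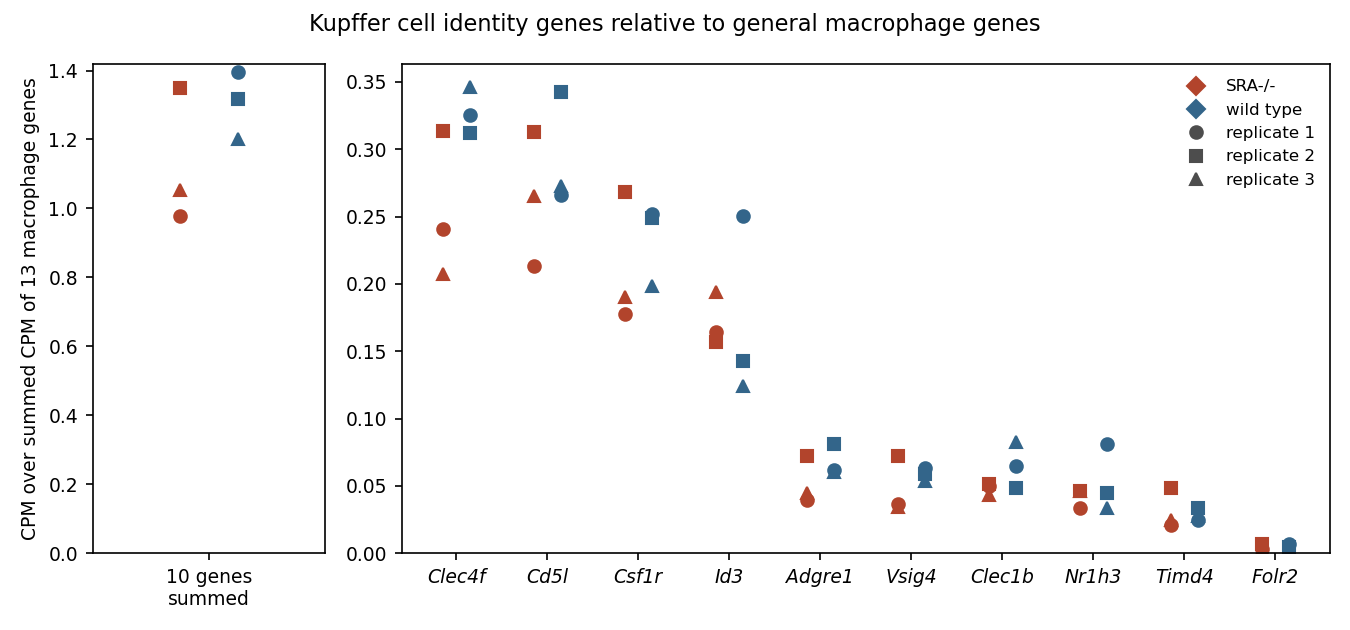
CPM of the 10 genes summed (left) and of each gene (right) divided by the summed CPM of 13 general macrophage genes, per library, with SRA-/- points left of wild type points. For the sum, SRA-/- libraries lie at 0.979 to 1.35 and wild type libraries at 1.201 to 1.40, so the ranges overlap.

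The direction of the list's median depended on single libraries. Leaving out SRA-/- replicate 2 gave -0.37, with 9 of 10 genes below 0. Leaving out wild type replicate 1 gave -0.23. Without SRA-/- replicate 1 or 3 it was 0.10 or 0.15. Without wild type replicate 2 or 3 it was 0.22 or 0.06. Limma-voom with quality weights gave a median of -0.38, with 9 of 10 below 0, and there wild type replicate 2 had a weight of 4.83 while the other 5 libraries had weights of 0.416 to 1.45. Adgre1 was the 1 of 10 with an unadjusted p under 0.05 in that fit, at 0.0350 with a log2 fold change of -0.81, where 11.6% of all tested genes had one. No setting put any of the 10 genes past an adjusted p of 0.05.

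Of a further 14 genes of Kupffer cells 0 passed edgeR's test, with 8 above 0 and a median log2 fold change of 0.05. C1qb, a complement C1q chain and the most abundant of them per length, had 139, 197 and 108 CPM in SRA-/- libraries, against 80.1, 180 and 179 CPM in wild type libraries. C6, a terminal complement component, had a log2 fold change of 0.41 ± 0.28. The smallest p in this list belonged to Spic, a transcription factor of iron-recycling macrophages, with 13.7, 20.8 and 14.2 CPM in SRA-/- libraries, against 4.94, 10.05 and 9.35 CPM in wild type libraries. Spic was the 1 of 14 genes whose groups did not overlap, where 7.28% of all tested genes did not, with a log2 fold change of 1.002 ± 0.29 and an edgeR adjusted p of 0.959. It was also the 1 of 14 with an unadjusted edgeR p under 0.05, at 0.00735, where 3.22% of all tested genes had one. Log2 fold changes of the 14 ran from -0.38 to 1.14, and the ends, Kcna2 and Marco, are named for their values. Marco averaged 126 ± 72.4 CPM in SRA-/- and 57.4 ± 56.9 CPM in wild type libraries (SD, n = 3 each).

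Of the 13 general macrophage genes 10 were above 0, 0 passed and the median log2 fold change was 0.18. Fcgr1, the high-affinity IgG receptor, had 8.32, 9.41 and 8.25 CPM in SRA-/- libraries, against 3.12, 5.005 and 4.35 CPM in wild type libraries, a log2 fold change of 1.06 ± 0.24 with an edgeR adjusted p of 0.675. Cd68, a lysosomal membrane protein, had 42.3, 39.9 and 36.0 CPM in SRA-/- libraries, against 24.9, 32.7 and 29.0 CPM in wild type libraries. These were the 2 of 13 genes whose groups did not overlap, where 7.28% of all tested genes did not, and neither passed. Cd14, a coreceptor for lipopolysaccharide and the most abundant of the list per length, had a log2 fold change of 0.15 ± 0.33.

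Regulators that act with Nr1h3 and Id3 were also measured. Of 13 macrophage transcription factor genes 8 were above 0, 0 passed and the median was 0.04. Spi1, which encodes PU.1, the lineage factor of myeloid cells, had 26.8, 31.2 and 24.3 CPM in SRA-/- libraries, against 10.3, 20.5 and 21.9 CPM in wild type libraries, a log2 fold change of 0.64 ± 0.27. The lowest SRA-/- value of Spi1 exceeded the highest wild type value, with an edgeR adjusted p of 0.9999. In this list 4 of 13 genes did not overlap, 3 higher and 1 lower in SRA-/- libraries, beside the same 7.28%. Rxra, the dimer partner of Nr1h3 and the most abundant of the list per length, had a log2 fold change of 0.05 ± 0.25.

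Among 16 ligand and niche genes 9 were above 0, 0 passed and the median was 0.02. Csf1, the ligand of Csf1r, had 88.8, 40.2 and 62.8 CPM in SRA-/- libraries, against 22.4, 35.6 and 56.0 CPM in wild type libraries, a log2 fold change of 0.75 ± 0.36. The ranges overlapped, and the library with the most Csf1, SRA-/- replicate 1, was not the one with the most Csf1r. Il34, the other ligand of Csf1r, averaged 3.83 ± 1.35 CPM in SRA-/- and 3.18 ± 0.66 CPM in wild type libraries (SD, n = 3 each). Pdpn, the ligand of Clec1b, averaged 1.14 ± 0.27 CPM in SRA-/- and 0.88 ± 0.40 CPM in wild type libraries. Il34 and Pdpn were picked after their values were seen, for their receptors. Dll1, a Notch ligand, had a log2 fold change of -0.43 ± 0.23. C3, whose fragments bind Vsig4, averaged 7363 ± 1719 CPM in SRA-/- and 6264 ± 2519 CPM in wild type libraries, and hepatocytes are its main source.

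Markers of other myeloid cells were measured as well. Of 9 recruited monocyte markers 5 were above 0 and 0 passed. Ccr2, the chemokine receptor of inflammatory monocytes, had 2.63, 3.002 and 3.67 CPM in SRA-/- libraries, against 1.304, 1.14 and 1.80 CPM in wild type libraries, with a log2 fold change of 1.12 ± 0.31 and an edgeR adjusted p of 0.841. No monocyte marker was at 0 in any library. Fn1 made up nearly all of the summed CPM of that list and is also made by hepatocytes. Among 7 markers of lipid-associated macrophages 5 were above 0 and 0 passed, and Gpnmb had 1.78, 4.04 and 1.90 CPM in SRA-/- libraries, against 0.480, 1.14 and 1.06 CPM in wild type libraries. Spp1, which encodes osteopontin and was the most abundant of them per length, had a log2 fold change of 0.61 ± 0.35. Of 8 dendritic cell markers 4 were above 0 and 0 passed, with Ccr7 at 0.97 ± 0.30, Zbtb46 at -0.34 ± 0.17 and Clec9a at -0.06 ± 0.28 on the log2 scale.

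Retnlg, S100a8 and S100a9, neutrophil genes, had log2 fold changes of 2.85 ± 0.62, 1.99 ± 0.40 and 2.26 ± 0.59. Ly6g, the eighth marker, was at 0 in 2 libraries and was not tested. All 8 sinusoidal endothelial genes were below 0, where 51.7% of all tested genes were, with a median of -0.22, and Lyve1, a hyaluronan receptor, averaged 116 ± 23.8 CPM in SRA-/- and 248 ± 88.0 CPM in wild type libraries. Gpr182 had a log2 fold change of -0.40 ± 0.20 and Stab2 one of -0.20 ± 0.27. In the platelet list 8 of 8 tested genes were below 0, beside the same 51.7%, with Ppbp at -0.50 ± 0.32, Gp6 at -0.64 ± 0.43 and Pf4 at -0.37 ± 0.35. Of 10 hepatocyte genes 8 were above 0, where 48.3% of all tested genes were, with Fgb at 0.51 ± 0.47, Apoa1 at 0.37 ± 0.40 and Alb at 0.28 ± 0.57. Pancreatic acinar markers summed to 2.63, 255 and 2.40 CPM in SRA-/- libraries, against 424, 359 and 688 CPM in wild type libraries. Of 7 tested acinar genes 7, Cela1 and Ctrb1 among them, were lower in every SRA-/- library than in any wild type library. Groups did not overlap, in either direction, for 7.28% of all tested genes. Of the 7 acinar genes 0 had an unadjusted edgeR p under 0.05. Among SRA-/- libraries replicate 2 was the highest in this list and in Kupffer cell genes. No gene of these lists passed edgeR's test, while DESeq2 called 3 neutrophil genes, where it called 0.267% of all genes it tested. Limma-voom called 1 neutrophil gene and Lyve1, where it called 0.365%. The part of these cells in the Kupffer cell values was not tested.

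Genes whose profile over the 6 libraries was most like the average of the 10 were sought among 12904 other genes with a mean of at least 1 CPM. The nearest was Sdc3, a cell surface proteoglycan, at a root mean square difference of 0.08 log2 units, and the next was C1qc, a complement C1q chain, at 0.10. Both belong to the list of other Kupffer cell genes. Next were Sec61g, Epb41l1, Pltp, Pmp22, Cd300c2 and Ephb6, at 0.11 to 0.12, where the median over all candidates was 0.47. Of these, Pltp encodes phospholipid transfer protein and Cd300c2 a myeloid receptor of the CD300 family. Sdc3 averaged 212 ± 67.6 CPM in SRA-/- and 201 ± 65.3 CPM in wild type libraries (SD, n = 3 each).

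Promoter sequences are shown for 4 of the 6 genes grouped above as high and low in the same libraries, and for Id3, the steadiest. The starts of genes with unlike profiles can thus be read side by side. The choice was made with the values in view. Adgre1 and Csf1r, the other members of the 6, are named only. Clec1b, which lay above and below its mean in the same libraries, has a window that is not shown. RefSeq windows of 300 bases, from 250 before to 50 after an annotated start, were found for 8 of 10 members in build GRCm38.p6, which differs from the mm39 build of the counts. Searched on both strands were GAGGAA, a core of PU.1 sites, TGCTGA, the repeat unit of a MAF site, AGGTCA, the repeat unit of nuclear receptor sites such as those of Nr1h3, and CANNTG, the E-box bound by partners of Id3. Capitals mark GAGGAA and TGCTGA on either strand, where the other strand reads TTCCTC and TCAGCA. Sequences run 5′ to 3′ on the strand of the gene.
Clec4f (chr6:83656067-83656366, minus strand): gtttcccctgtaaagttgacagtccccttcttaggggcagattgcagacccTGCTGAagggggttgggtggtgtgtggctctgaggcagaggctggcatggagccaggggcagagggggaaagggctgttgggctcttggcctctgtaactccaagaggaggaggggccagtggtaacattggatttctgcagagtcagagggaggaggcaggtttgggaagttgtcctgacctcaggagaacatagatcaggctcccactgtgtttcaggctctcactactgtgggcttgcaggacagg
Vsig4 (chrX:96293389-96293688, minus strand): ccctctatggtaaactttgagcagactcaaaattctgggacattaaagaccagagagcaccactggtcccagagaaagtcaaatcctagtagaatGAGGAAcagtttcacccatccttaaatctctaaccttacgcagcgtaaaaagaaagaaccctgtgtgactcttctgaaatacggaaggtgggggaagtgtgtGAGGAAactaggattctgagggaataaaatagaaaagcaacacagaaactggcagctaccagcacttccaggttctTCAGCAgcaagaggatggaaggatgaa
Timd4 (chr11:46810549-46810848, plus strand): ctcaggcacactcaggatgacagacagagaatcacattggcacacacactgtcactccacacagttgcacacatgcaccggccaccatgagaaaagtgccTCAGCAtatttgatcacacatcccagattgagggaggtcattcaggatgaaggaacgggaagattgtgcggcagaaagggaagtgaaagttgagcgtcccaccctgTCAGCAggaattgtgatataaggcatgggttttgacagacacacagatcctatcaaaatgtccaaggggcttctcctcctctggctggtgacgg
Cd5l (chr3:87357631-87357930, plus strand): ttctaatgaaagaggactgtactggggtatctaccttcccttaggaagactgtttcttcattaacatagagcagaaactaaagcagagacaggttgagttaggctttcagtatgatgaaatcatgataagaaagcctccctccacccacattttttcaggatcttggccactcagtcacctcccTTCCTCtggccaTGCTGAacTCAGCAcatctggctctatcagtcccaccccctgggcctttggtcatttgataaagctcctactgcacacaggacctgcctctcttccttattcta
Id3 (chr4:136143572-136143871, plus strand): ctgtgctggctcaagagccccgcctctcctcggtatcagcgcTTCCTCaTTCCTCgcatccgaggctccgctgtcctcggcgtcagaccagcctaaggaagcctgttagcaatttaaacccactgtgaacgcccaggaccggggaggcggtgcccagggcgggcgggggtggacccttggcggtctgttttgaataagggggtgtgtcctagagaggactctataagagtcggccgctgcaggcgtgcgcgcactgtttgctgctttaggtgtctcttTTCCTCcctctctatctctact

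Members are counted by gene and the background by window, and Nr1h3 and Folr2 had 2 windows each, so the shares are not of like units. TGCTGA was found in 5 of 8 members with a window, Clec4f, Vsig4, Timd4, Cd5l and Folr2, and in 19.5% of the 32851 windows of that length. GAGGAA was found in 4 of 8, Vsig4, Cd5l, Nr1h3 and Id3, and in 28.3% of all windows. Clec1b had neither TGCTGA nor GAGGAA in its window, although its profile had the signs of the genes grouped above. AGGTCA was found in 2 of 8, Clec4f and Timd4, and in 16.3% of all windows, and CANNTG in 5 of 8 and in 72.3% of all windows. The window of Id3 held GAGGAA at 3 places and none of the other motifs, and that of Vsig4 held it at 2 places. In the window of Cd5l, TGCTGA and its reverse complement stood next to each other, starting 54 and 46 bases before the annotated start. These repeat units face each other with 2 bases between them. That arrangement, with any 2 bases in the gap, was found in 2 of the 32851 windows (0.00609%), the Cd5l window included. It was searched for after the Cd5l sequence had been read. With 1 base in the gap it was found in 0 of 8 members and in 2 of the 32851 windows. Matches of letters are a description and say nothing of binding.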

How the data were processed

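Liver non-parenchymal cells were profiled by RNA-seq in 3 SRA-/- and 3 wild type libraries, grouped by their titles. Per the file headers, the authors made the gene counts with featureCounts 2.0.2 on GENCODE vM26 (mm39), without strand and with each mate of a pair counted. STAR and FastQC are named in the submitters' processing notes, with no version used here. The deposited counts were tested with edgeR 4.0.16 (R 4.3.3): genes kept by filterByExpr, TMM scaling, a robust quasi-likelihood test, and Benjamini-Hochberg adjustment over all 20541 genes, with a threshold of 0.05. Intervals are 95% intervals from that fit. DESeq2 1.42.0 and limma 3.58.1 were alternatives, beside other scalings, other filters, a replicate block and each library left out. Deviations are of log2 CPM with a prior count of 2. An exact permutation test of 3 against 3 cannot go below 0.1 and was not used. The 10 genes, the marker lists and the rule for naming genes were chosen with earlier results of these data known. From each other list the text names the 2 genes with the smallest p and the most abundant per length, and 8 nearest genes; 2 of the genes so chosen are not reported here. The scripts were checked on simulated counts.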

Additional observations from a re-analysis of the deposited data

How the results depend on the processing

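None of the 10 Kupffer cell genes passed an adjusted p of 0.05 in any of the 16 other settings, of which 2 were chosen after seeing the data, and the lowest adjusted p was 0.395. Of the 160 gene results, 130 kept their direction and 30 reversed, and the cause was not tested. With limma-voom the log2 fold changes of Timd4, Csf1r and Folr2 were -0.37, -0.39 and -0.27. With hepatocyte markers as a covariate those of Clec4f, Vsig4, Cd5l and Clec1b were 0.063, 0.10, 0.17 and 0.082, and with macrophage genes as a covariate those of Timd4 and Csf1r were -0.19 and -0.27. Leaving out each library in turn gave -0.68 to 0.15 for Adgre1, -0.33 to 0.30 for Cd5l, -0.54 to 0.15 for Clec1b, -0.50 to 0.032 for Clec4f, -0.28 to 0.32 for Csf1r, -0.40 to 0.56 for Folr2, -0.23 to 0.10 for Nr1h3, -0.34 to 0.60 for Timd4, -0.66 to 0.21 for Vsig4 and 0.22 to 0.36 for Id3. Over all tested genes edgeR called 10, DESeq2 61, limma-voom 75, edgeR on unfiltered genes 32 and edgeR with hepatocyte markers as a covariate 17. Leaving out libraries gave 3, without SRA-/- replicate 3, to 40, without SRA-/- replicate 2. The count was 4 when SRA-/- replicate 1 or wild type replicate 2 was left out. Same-numbered libraries did not deviate together (correlations of -0.29, -0.14 and -0.13). These values show no pairing by number, but profiles centred on 3 libraries cannot exclude one. With the replicate block 5 genes were called, 0 of them Kupffer cell genes, Cd5l was at 0.052 and the median of the 10 genes was 0.01. The lowest count of a Kupffer cell gene was 58, for Folr2 in SRA-/- replicate 3, and no setting varied depth or the number of libraries in a way that separates their limits.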
